A study of Mus musculus with 6 samples.

Results

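The high-mobility group A genes *Hmga1* (NCBI gene 15361), *Hmga1b* (111241) and *Hmga2* (15364) were 3 of the 18169 genes measured by RNA-seq in Hepa 1–6, a cell line of mouse hepatoma origin. All 3 were taken by their symbols in the deposited gene table. The family was selected on these same libraries, because *Hmga1b*, a near copy of *Hmga1*, had the smallest p-value there, so every difference between Shh and vehicle in the 3 genes is given as a description, with no test. The libraries formed a Shh group and a vehicle group, with 3 libraries from cells treated with the secreted ligand sonic hedgehog (Shh) and 3 from cells given vehicle. Both groups were Hepa 1–6 cells with no other treatment or allele named. Neither the dose nor the duration of Shh is stated for the RNA-seq in the sources used here. Separate cultures are not named in the labels either, so p-values measure only the spread between libraries, which may be technical.

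HMGA proteins are small chromatin proteins that have no transcriptional activity of their own. They bind the minor groove of AT-rich DNA through short basic motifs, the AT-hooks, and help transcription factors assemble on promoters and enhancers. *Hmga1* and *Hmga2* are abundant in embryonic tissues, are low in most adult tissues and are often expressed again in tumors, hepatocellular carcinoma included. *Hmga2* mRNA is a well-known target of let-7 microRNAs.

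The sequences show how alike the members were, and where reads could be shared. In GENCODE M21 (GRCm38), *Hmga1* lies on the plus strand at chr17:27556497-27563674, has 17 transcripts here and is spliced from 5 to 6 exons. *Hmga1b* lies on the plus strand at chr11:120762794-120764419 and consists of 1 exon, with no intron. *Hmga2* lies on the minus strand at chr10:120361275-120476469, with 2 to 6 exons per transcript. These gene models are those of the reference used here, because the sources used here name neither the build nor the annotation behind the deposited counts. Bases 1 to 300 of the coding sequences of *Hmga1b* and *Hmga2* are shown, with the codons for the Arg-Gly-Arg-Pro core of each AT-hook in capitals. The coding sequence of *Hmga1b* was identical over its 321 bases to that of 5 *Hmga1* transcripts, so its line stands for both genes.
Hmga1b (identical in Hmga1): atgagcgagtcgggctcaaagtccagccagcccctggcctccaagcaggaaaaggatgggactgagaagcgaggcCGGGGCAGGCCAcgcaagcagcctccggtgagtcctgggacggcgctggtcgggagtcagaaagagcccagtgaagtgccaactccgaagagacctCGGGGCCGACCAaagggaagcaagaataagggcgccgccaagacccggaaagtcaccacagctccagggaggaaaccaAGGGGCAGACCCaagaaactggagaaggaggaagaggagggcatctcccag
Hmga2: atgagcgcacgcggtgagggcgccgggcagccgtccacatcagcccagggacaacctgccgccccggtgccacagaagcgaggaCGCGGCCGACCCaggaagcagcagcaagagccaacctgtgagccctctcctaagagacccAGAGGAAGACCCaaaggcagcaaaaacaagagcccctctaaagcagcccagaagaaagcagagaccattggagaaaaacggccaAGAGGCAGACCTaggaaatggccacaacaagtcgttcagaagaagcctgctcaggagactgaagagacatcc
Both coding sequences held 3 AT-hook cores, at codons 26, 58 and 84 in *Hmga1b* and at codons 29, 49 and 77 in *Hmga2*. Over the whole coding sequence *Hmga2* was identical to *Hmga1b* at 56.9% of aligned bases, gaps included. The 5 *Hmga1* transcripts encode the same 107 codons as *Hmga1b*, while 5 others encode 96 codons, 11 fewer, and the remaining 7 have between 87 and 118. The form of 96 codons is the splice form called HMGA1b, which is not the product of the gene *Hmga1b*. The deposited values are per gene and do not separate splice forms.

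The reads were single-end and 50 bases long, and most stretches of that length in *Hmga1b* also occur in *Hmga1*. The 1626-base *Hmga1b* transcript aligned to the *Hmga1* transcript most like it over 1602 bases with 1599 identical, followed by 24 bases that did not align. All 3 substitutions lay in the 3′ UTR, at A657G, A784G and G1246T (the *Hmga1* base, the position counted from base 1 of the *Hmga1b* transcript, and the *Hmga1b* base). Of the 1577 windows of 50 bases in *Hmga1b*, 1403 (89.0%) also occurred in an *Hmga1* transcript. The other 174 windows (11.03%) overlapped a substitution in 150 cases and the unaligned 3′ end in 24 cases. Seen from *Hmga1*, 55.0% of its 2553 windows, pooled over its 17 transcripts, were shared with *Hmga1b*. Within single *Hmga1* transcripts the shared part ran from 52.1 to 87.2%, and it was 86.0% in the transcript most like *Hmga1b*. *AI413582* was the other gene that shared windows with *Hmga1* or *Hmga1b*, with 53. *Hmga2* shared none of its 6770 windows with *Hmga1* or *Hmga1b*, and 2.73% with any other gene.

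**Figure D1:**
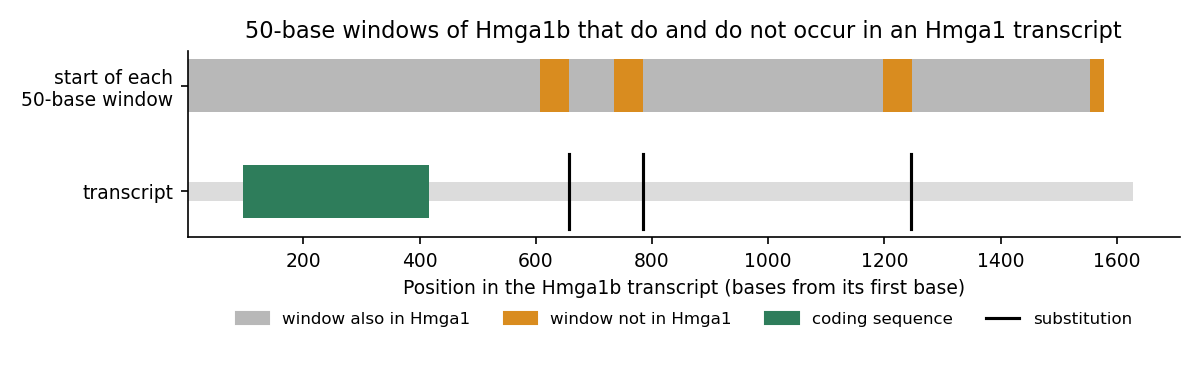
Windows of 50 bases along the *Hmga1b* transcript (upper row, placed by their first base) and its coding sequence and substitutions against *Hmga1* (lower row), with the position in bases on the x axis. The 174 windows not found in *Hmga1* (orange) form 4 runs, none of which starts within the coding sequence, and the other 1403 (grey) also occur in *Hmga1*.

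The libraries held 20253781 to 20291075 counts with Shh and 20278619 to 20335463 with vehicle. Every pair of libraries differed by more than sampling noise, with a chi-square over its degrees of freedom of 6.4 to 12.25 in pairs that held Shh replicate 2 and 1.72 to 4.95 in the others. The 7 liver and hepatoma markers in the table (*H19* was not in it) summed to 960 to 1000 FPKM with Shh and 985 to 997 FPKM with vehicle, a sum that *Alb*, *Afp* and *Trf* carried. *Hnf4a* lay at 46.0 to 47.6 FPKM with Shh and 44.3 to 45.2 FPKM with vehicle. The other 3 markers were low, *Apoa1* at 2.52 to 3.52 FPKM with Shh and 3.2 to 3.61 FPKM with vehicle, *Ttr* at 0.33 to 0.78 FPKM with Shh and 0.26 to 0.52 FPKM with vehicle, and *Gpc3* at 0.29 to 0.33 FPKM with Shh and 0.27 to 0.31 FPKM with vehicle. Endothelial markers summed to 0.17 to 0.43 FPKM with Shh and to 0.16 to 0.32 FPKM with vehicle. The leukocyte list summed to 9.85 to 13.2 FPKM with Shh and 11.94 to 12.01 FPKM with vehicle, nearly all of it *Cd68*, and the stellate or fibroblast list to 2.64 to 7.63 FPKM with Shh and 3.70 to 5.88 FPKM with vehicle. The Hedgehog target *Gli1* had 47, 56 and 44.06 counts with Shh, against 50, 43 and 48 with vehicle, and its log2 fold change was 0.04 (standard error 0.18, adjusted p = 0.955 from edgeR). The Hedgehog receptor gene *Ptch1*, another target, had 682, 766 and 710 counts with Shh, against 713, 630 and 735 with vehicle (adjusted p = 0.891 from edgeR). *Hhip*, a decoy for the ligand, had at most 2 counts with Shh and at most 3 with vehicle.

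*Hmga1*, which encodes the splice forms HMGA1a and HMGA1b, was among the most abundant transcripts of the line. Bulk libraries cannot tell more RNA per cell from more cells that express a gene. It had 33604.61, 31845.5 and 31120.16 estimated counts in the Shh libraries, against 34002, 34663 and 32174.02 in the vehicle libraries. On the length-scaled level the Shh libraries had 1012.37, 958.64 and 936.51 FPKM and the vehicle libraries 1022.98, 1042.34 and 967.09 FPKM. The means were 969 ± 39.0 FPKM with Shh and 1011 ± 39.1 FPKM with vehicle (SD, n = 3 each), and the groups overlapped, since Shh replicate 1 stood above vehicle replicate 3. The log2 fold change was -0.09 (standard error 0.05), close to the -0.04 median of the 1048 genes whose length lay within 10% of that of *Hmga1*. By its mean of 990.0 FPKM, *Hmga1* ranked 97th of the 12286 genes that passed the expression filter.

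*Hmga2*, the family member most restricted to embryonic and tumor cells, was barely expressed. It had 70.45, 98.34 and 70.94 counts with Shh, against 70.5, 77.26 and 78.41 with vehicle. In FPKM these were 0.95, 1.32 and 0.95 with Shh and 0.95, 1.04 and 1.05 with vehicle, with means of 1.07 ± 0.21 and 1.01 ± 0.055 (SD, n = 3 each). Shh replicate 2 was the highest library, the other Shh libraries lay at or near the lowest vehicle library, and the groups overlapped. The log2 fold change was 0.06 (standard error 0.16). Without Shh replicate 2 it was -0.10, so that 1 library set its sign.

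*Hmga1b* carried few reads, and nearly all of them lay in the Shh libraries. It had 158.39, 66.5 and 132.84 counts with Shh, against 0, 0 and 14.98 with vehicle. In FPKM, the Shh libraries had 5.1, 2.15 and 4.28 and the vehicle libraries 0, 0 and 0.48, with means of 3.84 ± 1.52 with Shh and 0.16 ± 0.28 with vehicle (SD, n = 3 each). The groups did not overlap, and the lowest Shh library had 4.44 times the counts of the highest vehicle library. Over the 12286 genes, 6.79% had every Shh library above every vehicle library in CPM (counts per 1e6 reads, after TMM scaling). The fitted log2 fold change was 4.52 (standard error 0.62). *Hmga1b* passed the low-count filter through its Shh libraries alone, so it had to differ, and it was chosen by this contrast. With all 6 libraries the Shh mean of 119 counts was 23.9 times the vehicle mean. Without vehicle replicate 3 the remaining vehicle libraries were both at 0. Against a floor of 3 counts per library, the Shh mean was 39.8 times the floor and the lowest Shh library 22.2 times. That floor allows for counting error only, not for the error of dividing shared reads, so it gives no lower limit.

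**Figure D2:**
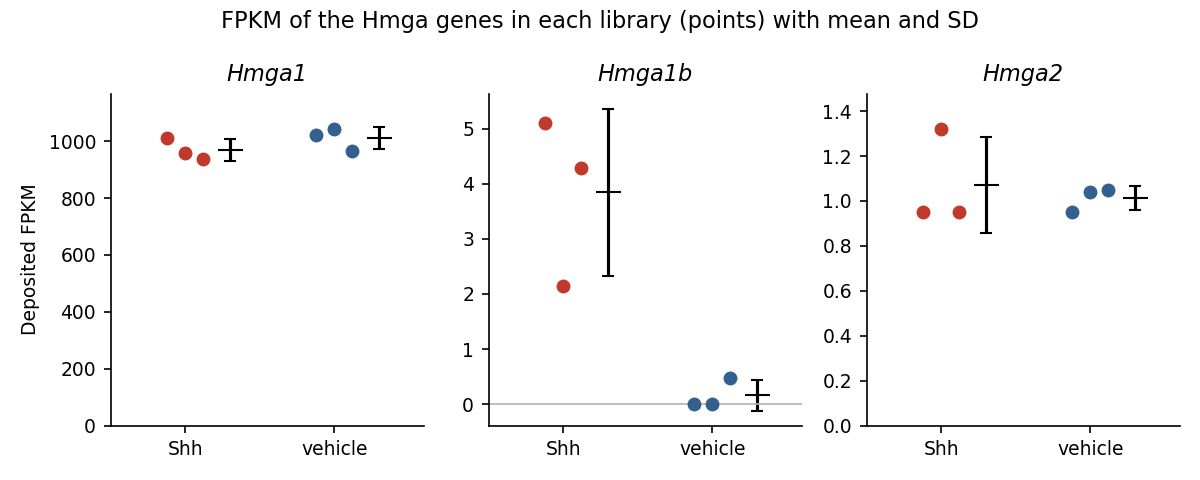
Deposited FPKM (y axis, a separate linear scale per gene) of *Hmga1*, *Hmga1b* and *Hmga2* in each Shh and vehicle library (points), with the mean and SD of 3 libraries beside them. *Hmga1* sits between 936.51 and 1042.34 FPKM and *Hmga2* between 0.95 and 1.32 FPKM with overlapping groups, while *Hmga1b* lies at 2.15 to 5.1 FPKM with Shh and at 0 to 0.48 FPKM with vehicle.

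The order of the members per length was set by *Hmga1b*. *Hmga1* was far above both others in every library. In the Shh libraries *Hmga1b* (2.15 to 5.1 FPKM) lay above *Hmga2* (0.95 to 1.32 FPKM), with no overlap. In the vehicle libraries *Hmga1b* (0 to 0.48 FPKM) lay below *Hmga2* (0.95 to 1.05 FPKM), again with no overlap. The change of order restates the *Hmga1b* values by which the family was chosen and is no further result.

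The estimated counts of *Hmga1* and *Hmga1b* were tied to each other. Each was a fraction in the same 4 libraries and whole, to within 0.01 counts, in the same 2, vehicle replicates 1 and 2, where *Hmga1b* was at 0. Their sum was whole in all 6 libraries, at 33763, 31912 and 31253 with Shh and 34002, 34663 and 32189 with vehicle. Among the 18168 other genes, *Hmga1b* was the single gene whose fractions completed those of *Hmga1* in all 4 libraries, and *Hmga1* was the single one for *Hmga1b*. *Hmga2* also had fractions, in all 6 libraries, and no gene completed them in all 6. In the 4 libraries where both had fractions, *Hmga1* and *Hmga1b* thus added up to 1 pool with a whole number of reads, and the split of that pool was an estimate. In vehicle replicates 1 and 2 the sum was *Hmga1* alone, so its being whole shows nothing about a split. How many reads of the pool covered 1 of the 174 distinguishing windows is not recorded in a table of gene counts.

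The pool itself differed little. It averaged 973 ± 39.8 FPKM with Shh and 1011 ± 38.8 FPKM with vehicle (SD, n = 3 each). Fitted as 1 gene in place of 2, *Hmga1* plus *Hmga1b* had a log2 fold change of -0.08 (standard error 0.05). *Hmga1b* was at most 0.469% of the pool, so this sum was nearly all *Hmga1* and could not register a difference in *Hmga1b*. The mean of *Hmga1b* was 114.2 counts higher with Shh, while that of *Hmga1* was lower by 1422.9 counts (a difference of -1422.9). Vehicle libraries alone spanned 2489 counts of *Hmga1*. In counts, the difference in *Hmga1b* was thus smaller than the range of its parent within the vehicle group. That range is no measure of the error of the split.

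As a share of the pool, *Hmga1b* received 0.469% (exact 95% interval 0.398 to 0.547%) in Shh replicate 1, 0.208% (0.160 to 0.263%) in Shh replicate 2 and 0.425% (0.356 to 0.504%) in Shh replicate 3. With vehicle it received 0.0465% (0.0261 to 0.0768%) in replicate 3 and 0 in replicates 1 and 2. The exact intervals of those libraries reach up to 0.0108% and 0.0106%, and 3 counts of their pools are 0.00882% and 0.00865%. The mean share was 0.367 ± 0.140% with Shh and 0.0155 ± 0.0269% with vehicle (SD, n = 3 each), a difference of 0.352 percentage points. The intervals are Clopper-Pearson intervals on rounded counts and cover counting error only, not the error of dividing shared reads. Reads without molecular identifiers are not independent molecules. Shh replicate 2 lay below the intervals of the other Shh libraries.

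**Figure D3:**
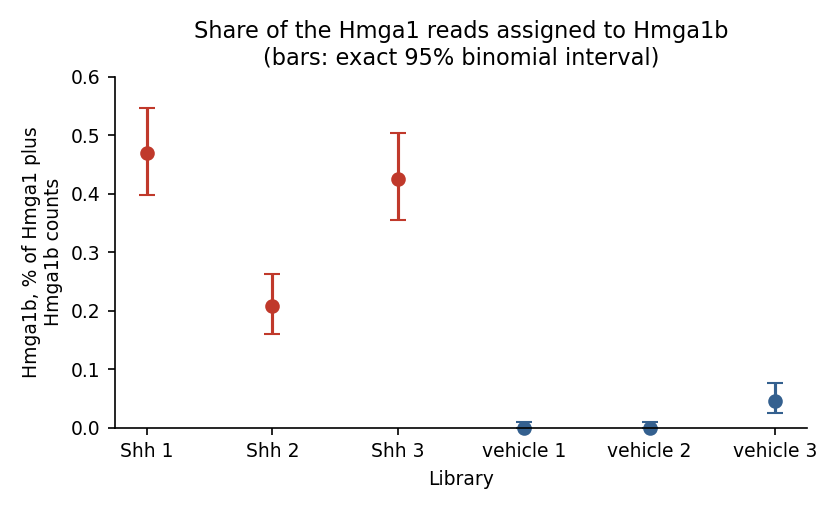
Share of the summed *Hmga1* and *Hmga1b* counts assigned to *Hmga1b* (y axis, percent) in each library, with exact 95% binomial intervals as bars. The Shh libraries lie at 0.208 to 0.469%, the vehicle libraries at 0 to 0.0465%.

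The share of 1 gene in the summed counts of a pair was also computed for other near copies. By the same count of windows, 108 pairs of measured genes, *Hmga1b* with *Hmga1* included, shared at least 50% of the windows of 1 gene (the copy) with the other (the parent) and had at least 50 counts each on average. For *Hmga1b* the mean share with Shh was 23.7 times that with vehicle. Across the other 107 pairs this ratio ran between 0.669 and 1.76, and the share was higher with Shh in 49 pairs and lower in 58. Counting the 67 pairs whose loci do not overlap, a split made after the data were seen, gave the same limits. Ratios of group means do not show the spread within a group. *Fam177a2* against *Fam177a*, with the ratio of 1.76, took 47.4, 56.8 and 0.035% with Shh and 44.1, 14.55 and 0.612% with vehicle. *Gm6763* against *Gm21293*, at overlapping loci, took 48.5, 51.7 and 36.7% with Shh and 100, 0 and 61.1% with vehicle. Neither pair had a whole sum in any library. The 108 pairs held 87 different copies, so some genes recur. Of the other 107 pairs, 17 had a copy with fractions and a sum that was whole in all 6 libraries, as for *Hmga1b*. Of these, 10 were at separate loci. The remaining pairs lacked 1 or both of these traits, so their share need not be the split of 1 pool. The ratio of *Hmga1b* is a description, since the gene was chosen by this contrast. *Hmga1b* also met the limit of 50 counts through its Shh libraries, with a mean of 119 counts against 4.99 with vehicle. A share has an upper limit, so a copy that already held a large part of its pair with vehicle could not reach such a ratio.

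Several copies had larger differences in percentage points than *Hmga1b*, whose whole share was below 1%. The share of *1700049E17Rik2* against *1700049E17Rik1* differed by 26.9 percentage points (pooled SD 16.4), that of *Gm14434* against *Gm2026* by 23.4 (9.30) and against *Gm4631* by 16.9 (19.2). The largest negative differences were those of *H2bc23* against *H4bc24* at -17.4 percentage points (14.3), *Gm2026* against *Gm14308* at -16.7 (12.7) and *Gm14410* against *Gm14434* at -15.3 (10.7). Of these 6 pairs, *Gm14434* with *Gm2026* and *Gm14410* with *Gm14434* had groups that did not overlap. None of the 6 had a whole sum in any library, unlike *Hmga1b* with *Hmga1*. The pairs that hold *Gm14434* or *Gm2026* have genes in common and are not separate comparisons.

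Copies that, like *Hmga1b*, took a small part of a pool of whole reads at a separate locus were looked up after the values had been seen. The share of *LOC100862446* beside *Ftl1*, the ferritin light chain gene, was 0.583, 0.755 and 0.448% with Shh and 0.530, 0.702 and 0.665% with vehicle. *Amd2*, beside *Amd1* for an enzyme of polyamine synthesis, took 1.54, 1.38 and 1.99% with Shh and 0.985, 0.926 and 1.79% with vehicle. *Rps27rt*, beside the ribosomal protein gene *Rps27*, took 2.61, 5.49 and 1.95% with Shh and 1.97, 2.41 and 3.48% with vehicle. All 3 had overlapping groups and none was at 0 in a library. *Ndufb4c*, beside *Ndufb4* for a subunit of respiratory complex I, whose summed counts were whole in 5 of 6 libraries, took 7.90, 10.4 and 8.68% with Shh and 5.76, 7.001 and 3.89% with vehicle, and its groups did not overlap. Over the other 107 pairs, 9 had groups that did not overlap, 5 of them at separate loci.

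**Figure D4:**
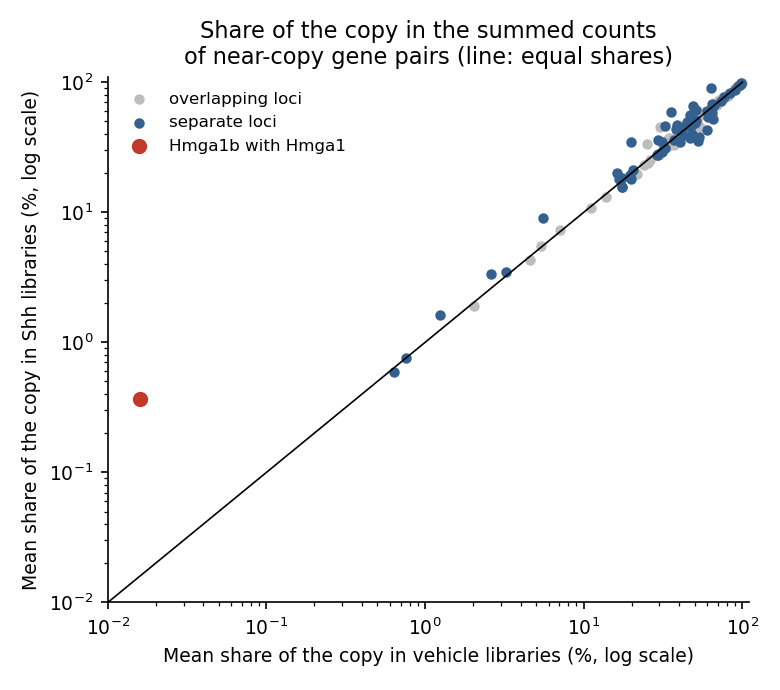
Mean share of the copy in the summed counts of 108 near-copy pairs, in Shh libraries (y axis) against vehicle libraries (x axis), both in percent on log scales, with the line of equal shares. *Hmga1b* with *Hmga1* (red) is at 0.368% with Shh and 0.016% with vehicle, and the other pairs lie near the line at 0.669 to 1.76 times equality. Copies with a large share with vehicle could not lie far above the line.

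No gene of the table passed an adjusted p of 0.05 in edgeR (0 of 12286, 0.0%), against 1277 at an unadjusted p under 0.05, 594 higher (4.83%) and 683 lower (5.56%) with Shh. DESeq2 called 6 genes, with 814 at an unadjusted p under 0.05. Of 59 distinct tested genes in 5 lists related to the family, none passed the adjusted threshold either, and at the unadjusted one 4 were higher and 2 lower.

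The other HMG genes encode the HMGB, HMG-box and nucleosome-binding HMGN proteins, which share a name with HMGA but not the AT-hook. Of 11 tested, 4 had a log2 fold change above 0 and 7 below, and the median was -0.002, beside 0.003 over all genes. *Hmg20b*, a subunit of the CoREST repressor complex, averaged 50.7 ± 0.80 CPM with Shh and 54.8 ± 1.47 CPM with vehicle (SD, n = 3 each), a log2 fold change of -0.11 (unadjusted p = 0.0317, adjusted p = 0.469 from edgeR). The abundant *Hmgb1*, a DNA-bending protein, averaged 618 ± 21.4 CPM with Shh and 619 ± 29.1 CPM with vehicle.

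The let-7 and Lin28 axis holds the processing machinery of microRNAs and the oncofetal RNA-binding proteins that rise with *Hmga2* in embryonic and tumor cells. None of its 13 tested genes had an unadjusted p under 0.05, and their log2 fold changes, 10 positive and 3 negative, had a median of 0.05. *Lin28a*, the blocker of let-7 maturation, averaged 0 CPM with Shh and 0.017 CPM with vehicle and was not tested, and its paralog *Lin28b* averaged 1.63 ± 0.36 CPM with Shh and 1.39 ± 0.19 CPM with vehicle. The oncofetal *Igf2bp1* was well expressed, at 113 ± 0.41 CPM with Shh and 112 ± 1.36 CPM with vehicle. With an offset for transcript length the list's median was -0.03.

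Other AT-hook proteins carry the same DNA-binding motif within much larger chromatin proteins. All 10 tested genes had a log2 fold change above 0, beside 6285 of 12286 over all genes, with a median of 0.09. Of them 3 were higher at an unadjusted p under 0.05, beside 4.83% of all genes. *Ash1l*, a histone H3 lysine methyltransferase, averaged 79.1 ± 5.32 CPM with Shh and 67.5 ± 0.16 CPM with vehicle (SD, n = 3 each), a log2 fold change of 0.23 (unadjusted p = 0.000935, adjusted p = 0.469 from edgeR). *Ahctf1*, which recruits nuclear pores to chromatin, averaged 186 ± 12.6 CPM with Shh and 167 ± 8.64 CPM with vehicle, and *Akna*, a centrosomal AT-hook protein, 13.1 ± 0.76 CPM with Shh and 11.6 ± 0.49 CPM with vehicle. The genes of this list were long, with a median of 7690 bases beside 2690 over all genes, and with the length offset their median log2 fold change was -0.003. Without Shh replicate 1, *Ash1l* was the 1 list gene called, among 195 calls over all genes.

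Genes reported as controlled by HMGA proteins include the insulin receptor gene *Insr*, liver genes of glucose and retinol handling, and cell-cycle and invasion genes. Of 12 tested, 5 had a positive and 7 a negative log2 fold change, and the median was -0.002. *Rbp4*, the retinol-binding protein of plasma, averaged 698 ± 53.5 CPM with Shh and 764 ± 27.4 CPM with vehicle (SD, n = 3 each), a log2 fold change of -0.13 (unadjusted p = 0.0334, adjusted p = 0.469 from edgeR). *Insr* averaged 31.1 ± 3.23 CPM with Shh and 30.9 ± 1.19 CPM with vehicle. *Pck1*, of gluconeogenesis, averaged 3.33 ± 2.74 CPM with Shh and 1.98 ± 0.20 CPM with vehicle, with a wide spread among the Shh libraries.

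Partners of HMGA proteins on chromatin include the retinoblastoma protein and the factors of the interferon-β enhanceosome. Of 15 tested, 10 had a positive and 5 a negative log2 fold change, and the median was 0.03. *Cbx5*, the heterochromatin protein HP1α, averaged 174 ± 14.7 CPM with Shh and 159 ± 4.22 CPM with vehicle (SD, n = 3 each), a log2 fold change of 0.12 (unadjusted p = 0.047, adjusted p = 0.477 from edgeR). *Rb1* averaged 11.9 ± 0.53 CPM with Shh and 11.2 ± 0.45 CPM with vehicle. Each list was chosen with earlier results of these data known, and the medians and counts above are descriptions of it.

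**Figure D5:**
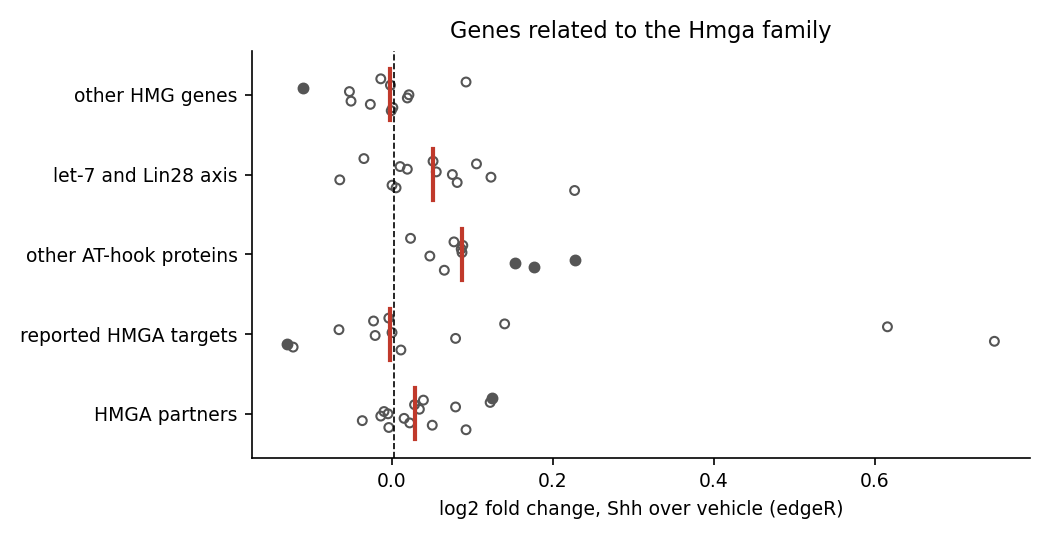
log2 fold change of Shh over vehicle from edgeR (x axis) for each tested gene of 5 lists related to the family (rows), with filled points for an unadjusted p under 0.05, a red bar for the list's median and a dashed line for the median of all 12286 genes. The AT-hook list has all 10 genes above 0 and a median of 0.09, and none of the 59 distinct genes passed the adjusted threshold.

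The genes whose profiles over the 6 libraries were most like those of each member were found among 9843 genes with at least 5 CPM on average, by Pearson correlation of log2 CPM. For *Hmga1* they were *Csnk1g2* (r = 0.994), *Ccdc85b*, *Myg1*, *Slc35a2* and *Ino80e* (0.985 for the last). For *Hmga1b* they were *Srek1* (r = 0.992), *Smarcal1*, *Fbxo5*, *Camk2g* and *Pdxdc1* (0.979 for the last), and for *Hmga2* they were *Tfb2m* (r = 0.996), *Timeless*, *Upf1*, *Fbxw7* and *Plxnb2* (0.972 for the last). With 6 libraries and this many genes such values describe the libraries, and no gene stood in more than 1 of the 3 sets. The genes nearest to *Hmga1b* had log2 fold changes of 0.05 to 0.13, beside 4.52 for *Hmga1b* itself. The profile of *Hmga1b* largely follows the contrast by which it was chosen, so genes like it tend to be higher with Shh.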

How the data were processed

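The authors sequenced poly(A) RNA of Hepa 1–6 cells, 3 libraries with Shh and 3 with vehicle, as single-end reads of 50 bases. The authors deposited estimated counts for each gene, with fractions in 34.6% of the values above 0, and FPKM scaled by length and by library total. Per the submitters' notes Bowtie2 was used, without a version. The counter, genome build and annotation were not given in the sources used here. Liver exosomes are named in the series' design text, but the sample labels name the cell line and were followed. Another 6 per-sample columns and the authors' group averages were not used.

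Counts were rounded and fitted over the whole table with edgeR 4.0.16 in R 4.3.3 (TMM scaling, quasi-likelihood test on group, Benjamini-Hochberg threshold 0.05). Its expression filter required about 10 counts in as many libraries as a group holds and 15 in total. Libraries held 20253781 to 20335463 counts. CPM are counts per 1e6 reads after TMM scaling. The members and lists were chosen with earlier results of these data known. Named were the 3 members, list genes with an adjusted p under 0.05 or otherwise up to 3 per direction with the smallest unadjusted p under 0.05, *Gli1*, *Ptch1*, *Hhip*, 5 genes most like each member and the 3 near-copy pairs with the largest rise and fall of the copy's share. *Cd68*, *Hmgb1*, *Lin28a*, *Lin28b*, *Igf2bp1*, *Insr*, *Pck1*, *Rb1*, *Fam177a2*, *Gm6763* and 4 further near copies were added after values were seen. Windows of 50 bases of all GENCODE M21 transcripts were compared by exact match on either strand, and 17693 of the 18169 genes had transcripts there. The edgeR fit was tested on simulated counts. These held no division of shared reads between genes, so they do not bear on the values of *Hmga1b*.

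Alternatives were DESeq2 1.42.0, upper-quartile factors, library totals alone, no filter, a stricter filter (5 CPM or more in 3 or more libraries), a replicate block, a length offset (spline with 5 degrees of freedom), block and offset together, limma 3.58.1 on log2(FPKM + 0.5) or log2(FPKM + 0.1), and leaving out each library. Pairs at separate loci were added after the data were seen.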

Additional observations from a re-analysis of the deposited data

How the results depend on the processing

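The direction of *Hmga1* (log2 fold change -0.09) and of *Hmga1* plus *Hmga1b* (-0.08) was the same under all 16 alternatives. That of *Hmga1b* (4.52) was fixed by its choice, since its groups do not overlap, and is no sign of stability. Over the 10 settings that kept all libraries, *Hmga1* ran from -0.09 to -0.04 and the sum from -0.08 to -0.03. Over the libraries left out in turn, *Hmga1* ran from -0.13 to -0.06, the sum from -0.12 to -0.06, *Hmga2* from -0.10 to 0.14 and the share of *Hmga1b* in the pool from 0.301 to 0.431 percentage points of difference. *Hmga1b* ran from 3.95 to 9.89 over the libraries left out, the highest without vehicle replicate 3, where the vehicle libraries were all at 0 and the fitted value depends on the prior count. On log2(FPKM + 0.5) it was 2.73, since a pseudocount shrinks the change of a low gene. The stricter filter (5 CPM or more in 3 or more libraries) removed *Hmga1b* and *Hmga2*, so it gave no value for them.

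The count of genes called over the whole table was 0 in the edgeR fit, 6 with DESeq2 (which gave an adjusted p to 615 genes), 1 without a filter, 1 with the length offset and 6 with the replicate block and the length offset together. Leaving out 1 library gave 0 to 195 calls. The 195 came without Shh replicate 1, and no other left-out library gave more than 3. The cause was not tested. In the AT-hook list the number called ran from 0 to 1 over the libraries left out, the 1 being *Ash1l* without Shh replicate 1. The near-copy pairs numbered 40 at 80% of windows shared, 46 at 200 counts and 67 at separate loci, against 108.

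Replicate numbers did not pair the libraries, whose deviations correlated at -0.04, -0.05 and 0.10, with number 3 alone correlating best with its own. With the replicate block no gene was called in edgeR (1363 at an unadjusted p under 0.05), and the share of *Hmga1b* differed by 0.352 percentage points, as without it. Counts of 0 and of 14.98 for *Hmga1b* in vehicle libraries limit the precision of its ratio.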
